A study of Mus musculus with 1 sample.

Results

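The genes of cholesterol synthesis and of its control by the sterol regulatory element-binding proteins (SREBPs) were examined in mixed glia of the mouse ventral midbrain (VM). The set held 29 genes, which were the rows whose gene symbol equalled a name on a fixed list, out of 23282 rows in all, and each of the 29 had exactly 1 row. The data came from 1 RNA-seq library, labelled as the control, of primary glia of ICR(CD-1) Outbred Mice taken at postnatal day 5, with no transgene or deletion named. The study compared such cultures with and without an inhibitor of the kinase SGK1, and its legends describe the control as given the vehicle DMSO. Inhibitor-treated glia were not analysed here, so no group was compared, no value has a replicate, and no test was run. How many pups went into the culture was not stated.

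Cells make cholesterol from acetyl-CoA in a long chain of enzymes. The mevalonate arm builds isoprene units, these are joined into squalene, squalene is closed into the first sterol, lanosterol, and lanosterol is trimmed to cholesterol. When sterols run low in the endoplasmic reticulum, the escort protein SCAP carries SREBPs to the Golgi, where proteases release the part that enters the nucleus and switches on the synthesis genes. INSIG proteins hold SCAP back when sterols are plentiful. In the brain, which is closed to lipoprotein cholesterol from the blood, glia are a main source of the sterol, and oligodendrocytes need it for myelin and astrocytes pass it to neurons on APOE particles. The glia here were cultured, and the study's methods plate mixed glia in medium with fetal bovine serum. Whether serum was present when the RNA was taken was not stated.

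Levels are normalised read counts, in whole numbers as deposited. They summed to 27569507 over the library. The number of sequenced reads behind them is unknown, so no counting interval is given. A gene at 10 or more was called detected, and the median of the 15648 detected genes was 469. The label of mixed glia was checked against marker lists. Microglial genes were high, with Tmem119 lowest at 984 and C1qa at 32619, and so were astrocyte genes, from S100b at 604 to Gfap at 17222. Among oligodendrocyte genes Mog was lowest at 135 and Mbp was at 10966, and genes of fibroblasts and mural cells ran from Lum at 455 to Acta2 at 26499. Neuronal genes ran from Slc17a6 at 0 to Map2 at 868, and 4 of 6 were detected. Of 4 endothelial genes, 2 were detected, Flt1 at 2427 and Pecam1 at 33, while Cldn5 was at 3 and Tek at 0. In a bulk library of such a mixture, a level cannot be assigned to a cell type, and fewer cells of a type cannot be told apart from less RNA per cell.

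All 29 genes were detected, against 67.2% of all rows. Of the 29, 21 lay above the median of detected genes, a level that 49.9% of detected genes exceeded. Their median was 1177, which is 2.51 times the median of detected genes, and they ran from Cyp27a1 at 177 to Fdft1 at 3741. Together they held 0.142% of the sum, or 1422 per 1000000. All 7 enzymes of the mevalonate arm and all 3 enzymes from farnesyl diphosphate to lanosterol were above the median, whereas 4 of the 8 enzymes from lanosterol to cholesterol were. For SREBP control it was 4 of 5 genes, and for the oxysterol enzymes 1 of 3. These counts, and the 21 of 29, depend on the minimum for detection. At a minimum of 100 the count for the set was 15 of 29, near the share of all genes that lies above their own median. With a minimum of 100, which raises the median to 779, Acat2, Mvk, Pmvk, Mvd, Lss and Nsdhl fell below it, which left 3 of 7 in the mevalonate arm, 2 of 3 up to lanosterol and 3 of 8 from lanosterol to cholesterol.

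**Figure D1:**
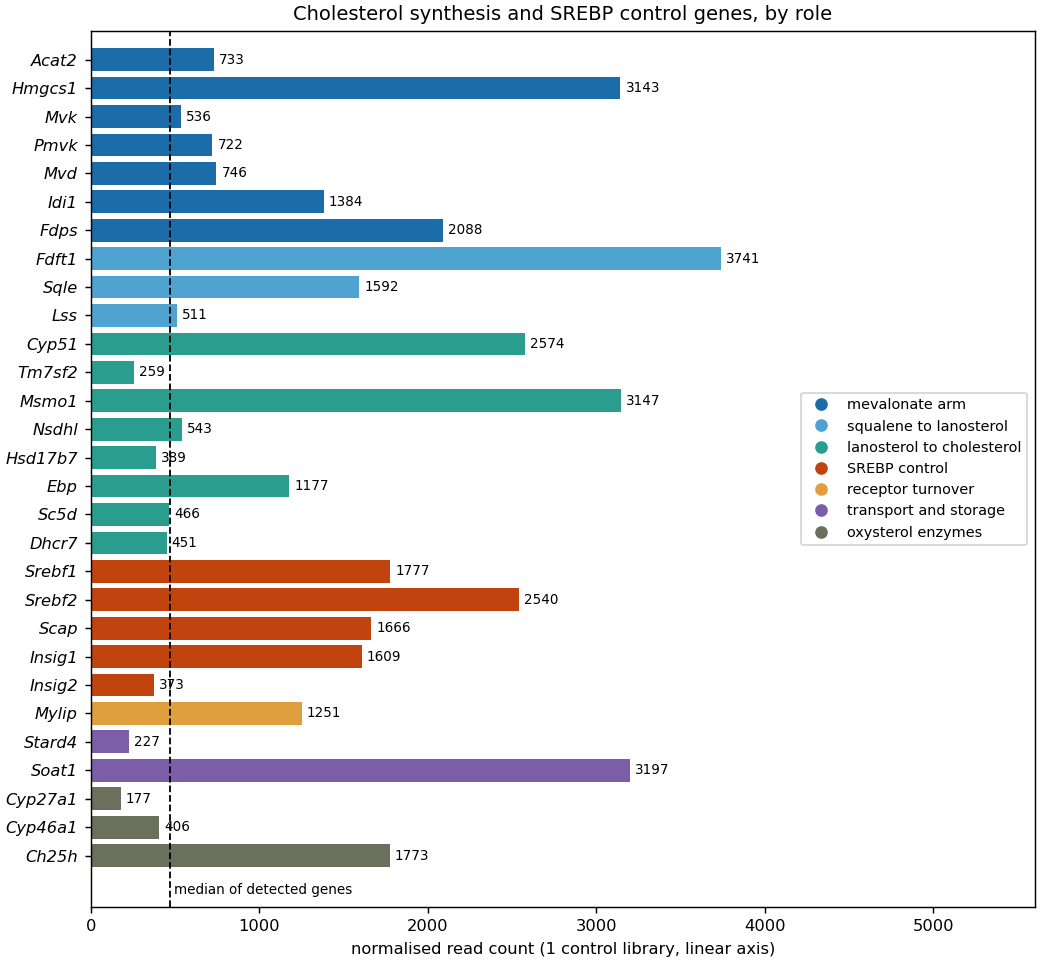
Bars give the normalised read count of each of the 29 genes in the 1 control library on a linear axis from 0, coloured by role in the pathway. The dashed line is the median of detected genes, 469, and the longest bars are Fdft1 at 3741, Soat1 at 3197, Msmo1 at 3147 and Hmgcs1 at 3143.

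SREBPs bind the sterol regulatory element together with the general factors NF-Y, which reads CCAAT, and Sp1, which reads GGGCGG. RefSeq promoters (GRCm38.p6), each from 250 bases before to 50 bases after a start, were searched for these letters on both strands. The table matched 25 of the 29 genes with 33 promoters, and Fdps, Fdft1, Sqle and Stard4 were not matched. Printed here are the 200 bases before the start for genes whose window held no annotated protein-coding exon: Hmgcs1 for the sterol element, Mvk, Mvd and Ebp for repeated CCAAT boxes, Srebf1 for a regulator, and Scap for a window with none of these in capitals. Srebf1 and Scap have other matched promoters that are not printed, and the promoters of Srebf1 differ in CCAAT boxes. The printed Srebf1 window was not assigned to a form of SREBP-1. Capitals mark TCACNCCAC, the core letters of the sterol element used in the search, and CCAAT or its reverse ATTGG, and all run 5′ to 3′ on the strand of the gene.
Hmgcs1 (chr13:119690151-119690350, plus strand): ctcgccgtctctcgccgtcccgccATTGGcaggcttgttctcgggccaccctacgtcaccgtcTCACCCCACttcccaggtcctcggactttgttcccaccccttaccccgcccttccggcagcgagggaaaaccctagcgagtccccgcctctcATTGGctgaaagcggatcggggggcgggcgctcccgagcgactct
Mvk (chr5:114444069-114444268, plus strand): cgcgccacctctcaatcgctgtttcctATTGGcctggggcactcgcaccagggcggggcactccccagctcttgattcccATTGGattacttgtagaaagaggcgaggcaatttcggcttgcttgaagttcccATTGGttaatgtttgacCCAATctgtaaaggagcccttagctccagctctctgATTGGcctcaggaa
Mvd (chr8:122443423-122443622, minus strand): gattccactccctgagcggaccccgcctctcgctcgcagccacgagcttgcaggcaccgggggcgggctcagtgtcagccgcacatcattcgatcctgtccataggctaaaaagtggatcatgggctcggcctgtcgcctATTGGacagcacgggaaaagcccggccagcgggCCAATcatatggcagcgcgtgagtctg
Ebp (chrX:8193513-8193712, minus strand): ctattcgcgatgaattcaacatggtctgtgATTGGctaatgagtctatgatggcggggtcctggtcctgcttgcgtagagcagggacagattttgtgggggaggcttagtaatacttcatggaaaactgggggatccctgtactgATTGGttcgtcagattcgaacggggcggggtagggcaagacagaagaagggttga
Srebf1 (chr11:60210472-60210671, minus strand): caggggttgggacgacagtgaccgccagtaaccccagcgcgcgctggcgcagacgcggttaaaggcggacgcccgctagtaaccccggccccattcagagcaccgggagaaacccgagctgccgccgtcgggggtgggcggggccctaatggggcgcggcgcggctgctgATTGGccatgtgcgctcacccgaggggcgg
Scap (chr9:110333088-110333287, plus strand): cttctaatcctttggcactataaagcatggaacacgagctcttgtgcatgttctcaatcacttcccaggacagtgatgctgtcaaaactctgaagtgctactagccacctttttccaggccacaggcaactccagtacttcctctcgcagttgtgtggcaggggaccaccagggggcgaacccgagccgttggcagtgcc

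Of the 25 genes, 22 (88.0%) held CCAAT in at least 1 promoter, against 42.6% of 11613 detected genes and 41.1% of all 27025 genes in the table. Counted by promoter it was 23 of 33 (69.7%), against 37.4% of all 32851 promoters. The 3 genes without CCAAT were Acat2, Scap and Ch25h. Mvk, the lowest of the mevalonate arm at 536, held 5 CCAAT boxes within the 200 bases printed. The Sp1 letters GGGCGG were found in 23 of the 25 genes (92.0%), against 65.0% of detected genes, and the E-box CACGTG in 5 (20%), against 11.1%.

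The core TCACNCCAC was found in 1 of the 25 genes, Hmgcs1, 137 bases before its start, and in 1.44% of detected genes. Only exact letters were searched, and sterol elements vary in sequence, so a window without these letters says nothing of SREBP binding.

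**Figure D2:**
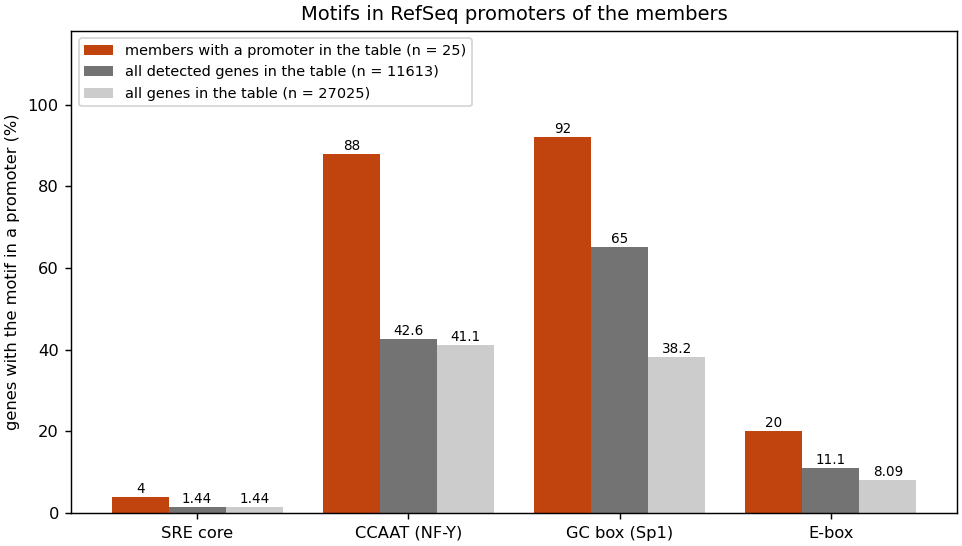
Bars give the percent of genes with each motif in at least 1 RefSeq promoter, for the 25 genes of the set that the table matched, for 11613 detected genes and for all 27025 genes of the table. Against detected genes the gap is widest for CCAAT, at 88.0% and 42.6%.

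A longer transcript yields more reads, so a value not divided by length gives the place of a gene in the library and does not order genes by transcript level. For a ratio between genes the values were divided by exon length. The length was the union of annotated exons, and the value per kilobase was expressed as a multiple of its median over detected genes, 102 per kilobase. On this scale 22 of the 29 genes were above the median, against 50.0% of detected genes. By role, it was 7 of 7 in the mevalonate arm, 2 of 3 up to lanosterol, 4 of 8 from lanosterol to cholesterol, 5 of 5 in SREBP control and 2 of 3 oxysterol enzymes. The other definitions of length were the longest transcript, the coding length, and the exons of transcripts matched to RefSeq. Under all 4 definitions 20 genes stayed above the median, 7 were above it under some of them, and 2, Lss and Cyp27a1, were below it under each.

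**Figure D3:**
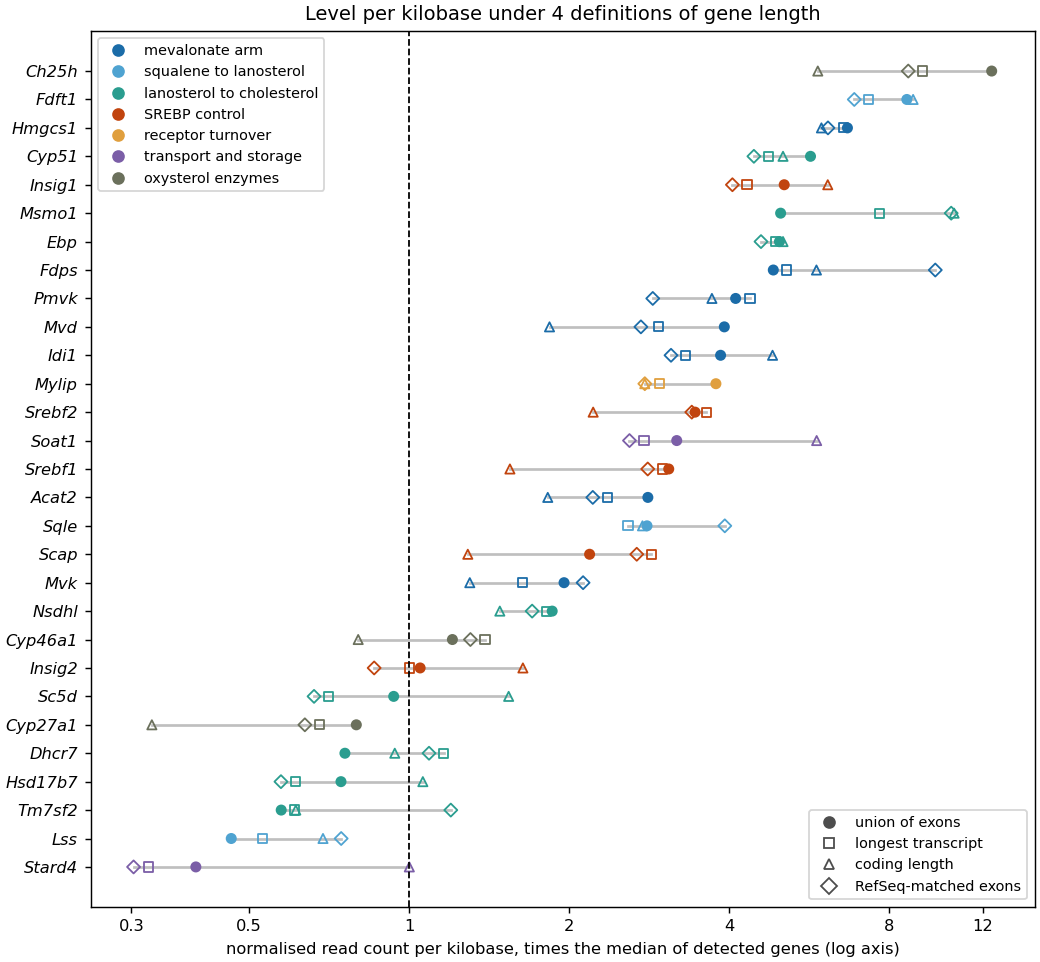
Each row is 1 gene and each symbol its normalised read count per kilobase, as a multiple of the median of detected genes (dashed line at 1, log axis), under 4 definitions of gene length. Grey lines join the lowest and highest of the 4, which span 1.10-fold for Ebp and 3.30-fold for Stard4, and colours give the role.

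In the mevalonate arm, Hmgcs1 had the highest undivided value, 3143, above 89.5% of detected genes. It encodes the cytosolic synthase that makes HMG-CoA and lies on chromosome 13 (119690379 to 119708260 in GRCm38, plus strand). Among the 25 genes with a matched promoter, Hmgcs1 alone held the sterol core. Its level per kilobase was 6.68 times the median of detected genes and moved little with the length used, from 5.97 to 6.68.

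The step before HMG-CoA, in which acetyl-CoA units are joined, belongs to the thiolase gene Acat2 at 733. Its neighbour on chromosome 17, Acat3, had a value of 2527, and the sum of both was 3260. The pair is hard to separate by short reads, since the transcripts were 97.7% identical over 1477 bases. A stretch of 445 bases of the Acat2 transcript also matched the opposite strand of Tcp1, a chaperonin gene at 9439, with 98.7% identity. How the authors treated reads that map to several places was not stated, so the split between Acat2 and Acat3 is uncertain.

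The next 3 enzymes turn mevalonate into an activated isoprene unit. Mevalonate kinase, Mvk, was at 536, phosphomevalonate kinase, Pmvk, at 722, and the decarboxylase gene Mvd at 746. The CCAAT boxes of Mvk and Mvd are in the sequences printed with the promoters. Per kilobase Mvk, Pmvk and Mvd were 1.96, 4.12 and 3.92 times the median, against 2.81 for Acat2. Hmgcs1 was 3.41 times Mvk per kilobase, and 2.89 to 4.59 times over the 4 lengths.

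Idi1, whose isomerase readies the isoprene units for joining, was at 1384, above 75.6% of detected genes. Its paralog Idi2 was at 3 and not detected. Fdps, the farnesyl diphosphate synthase gene at the branch towards sterols and prenylated proteins, was at 2088. Per kilobase Fdps was 4.84 times the median by the union of exons and 9.78 times by RefSeq-matched exons, where it stood above Hmgcs1 at 6.14. Of the Fdps exon union, 26.7% lies in exons of Gm43738 on the same strand, but 0 bases of its RefSeq-matched exons do. Gm43738 had no row, and what this overlap does to the Fdps value was not tested. Idi1 and Fdps also have processed pseudogenes that can share reads. Idi1 had 3 with at least 90% identity over 300 bases or more, of which Gm13502 matched all of 684 aligned bases, and Fdps had 5, led by Gm3571 with 98.9% over 1062 bases. None of these 8 pseudogenes had a row of its own.

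Fdft1 had the highest undivided value of the 29, 3741, above 91.5% of detected genes. It encodes squalene synthase, the first enzyme committed to sterols, and lies on chromosome 14 (63145150 to 63179578, minus strand). Per kilobase it was 8.64 times the median, and it ranked between 2 and 4 among the 29 under the 4 lengths. Its value carries a limit, because 774 bases, or 20.9% of its RefSeq-matched exons, are shared on the opposite strand with exons of Ctsb, which was at 164610. The strand setting of the count was not stated, and the part of Ctsb reads in the Fdft1 value was not tested. Fdft1 also has a processed pseudogene on chromosome 14, Gm6781, with 97.4% identity over 1249 bases and no row of its own.

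The squalene epoxidase gene Sqle, which encodes an oxygen-requiring control point of the pathway, was at 1592, above 78.7% of detected genes. Lanosterol synthase, Lss, was at 511, above 51.9%. Since the annotated exons of Lss are long, 10787 bases in union, its level per kilobase was 0.46 times the median, and from 0.46 to 0.74 across the 4 lengths. Fdft1 was 18.7 times Lss per kilobase of exon and 9.24 times by RefSeq-matched exons, and Sqle was 3.99 to 6.06 times Lss over the 4 lengths.

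The 8 enzymes between lanosterol and cholesterol ran from 259 to 3147. Msmo1, whose oxygenase removes methyl groups, was at 3147, above 89.5% of detected genes, and Cyp51, the lanosterol demethylase gene, was at 2574, above 86.8%. Both act early after lanosterol. Per kilobase, Msmo1 ranged from 5.00 to 10.6 times the median with the length used, and Cyp51 from 4.45 to 5.69. Ebp, a sterol isomerase gene on the X chromosome, was at 1177 and was the steadiest of the set, at 4.59 to 5.05 times the median.

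The other 5 enzymes were at 543 or less. Nsdhl, a dehydrogenase that works with Msmo1, was at 543, and the keto reductase gene Hsd17b7, which completes the same demethylation, was at 389. Tm7sf2, a sterol reductase gene, had the lowest undivided value of the 8, 259. For Tm7sf2, 12.1% of the exon union lies in exons of Vps51 on the same strand, but 1 base of its RefSeq-matched exons does. Per kilobase Msmo1 was 8.71 times Tm7sf2 by the union of exons, and up to 17.3 times by coding length.

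The desaturase gene Sc5d was at 466 and Dhcr7 at 451, just under the median of detected genes. DHCR7 reduces dehydrocholesterol, the precursor of vitamin D, to cholesterol in the last step of the pathway. Their side of the median depended on the length: Sc5d was at 0.66 to 1.54 times the median per kilobase, and Dhcr7 at 0.76 to 1.16. With Hsd17b7, at 0.57 to 1.06, and Tm7sf2, at 0.57 to 1.20, these were the synthesis genes of the set that crossed the median with the definition of length.

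Among the control genes, Srebf2 was at 2540, above 86.7% of detected genes, and Srebf1 at 1777, above 81.0%. SREBP-2, the product of Srebf2, mainly drives cholesterol genes, and SREBP-1 mainly fatty acid genes. The ratio of Srebf2 to Srebf1 was 1.12 per kilobase of exon, and from 1.12 to 1.43 over the 4 lengths, so they stood close, with no replicate error to judge the difference by. The single Srebf1 row does not separate the SREBP-1a and SREBP-1c forms, which start at different promoters.

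Scap, the escort of both SREBPs, was at 1666, above 79.7% of detected genes, or 0.63 times Srebf2 per kilobase and 0.58 to 0.79 times over the 4 lengths. Insig1 was at 1609 and Insig2 at 373, above 79.0% and 45.5%. Insig1 is itself an SREBP target, which closes a feedback loop, whereas Insig2 is known to depend less on sterols. The ratio of Insig1 to Insig2 was 4.84 per kilobase, and it stayed between 3.75 and 4.84 over the 4 lengths.

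Mylip, whose E3 ubiquitin ligase removes lipoprotein receptors from the cell surface and is induced by the oxysterol-sensing liver X receptors, was at 1251, above 73.3% of detected genes. Its level per kilobase was 2.78 to 3.78 times the median.

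Soat1, which encodes the enzyme that esterifies cholesterol for storage in droplets, was at 3197, the second highest undivided value of the 29. The paralog Soat2, known from liver and intestine, was at 17. Soat1 has long exons, 9791 bases in union, and its level per kilobase was 3.19 times the median, or 5.85 times by coding length. Stard4, a soluble sterol carrier that is a known SREBP-2 target, was at 227, above 35.7% of detected genes. Soat1 was 8.04 times Stard4 per kilobase, and 5.84 to 8.58 times over the 4 lengths.

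Among the oxysterol enzymes, Ch25h, the cholesterol hydroxylase gene that macrophages and microglia induce in inflammation, was at 1773, above 80.9% of detected genes. It has a single exon of 1387 bases on chromosome 19 (34473778 to 34475164, minus strand), and its level per kilobase, 12.5 times the median, was the highest of the 29. By coding length it was 5.88 times the median and ranked 5 of the 29. Cyp27a1, a mitochondrial sterol hydroxylase gene, was at 177, the lowest undivided value of the set. Ch25h was 15.7 times Cyp27a1 per kilobase, and 13.7 to 17.9 times over the 4 lengths.

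Cyp46a1, which encodes the hydroxylase that neurons use to release cholesterol from the brain, was at 406, above 47.2% of detected genes. Of the 6 neuronal markers, Map2 was at 868, above 64.4% of detected genes, Tubb3 at 124, Snap25 at 86, Rbfox3 at 20, Syt1 at 6 and Slc17a6 at 0, and they summed to 1104. Per kilobase of exon Map2 was 0.52 times the median of detected genes, and 0 of the 6 markers were above that median. Among markers of microglia, a cell type in which Ch25h is known, C1qa was at 32619, Csf1r at 31413 and Tmem119 at 984. Whether neurons, microglia or other cells carried these transcripts was not tested.

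Related genes were described in 5 further lists, beside the 49.9% of detected genes above their median. Fatty acid synthesis genes, the other SREBP arm, had a median of 1399.5, and 12 of 16 were above the median of detected genes. Scd2, a desaturase of the brain, was at 4664, Acly, which supplies cytosolic acetyl-CoA to both arms, at 4571, and Pnpla3 at 22. Genes of SREBP processing and of sterol-linked degradation in the endoplasmic reticulum had a median of 758, with 8 of 12 above. Pgrmc1, a sterol-linked membrane protein gene, was at 3040 and Paqr3 at 80, and the Golgi protease genes Mbtps1 and Mbtps2 were at 2127 and 454.

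The isoprenoid branch, which leads from farnesyl diphosphate to prenylated proteins, dolichol and coenzyme Q, had a median of 595, with 7 of 13 above. That is near the 49.9% of all detected genes that were above. Fnta, a farnesyltransferase subunit gene, was at 1780, Nus1 at 1632 and Pdss1 at 87. Genes of sterol transport and hydrolysis had a median of 1175.5, with 9 of 12 above. The lysosomal genes Npc2, a cholesterol-binding protein, and Lipa, the acid lipase, were at 8609 and 7342, and Soat2 was lowest. The enzymes that turn sterols into bile acids or steroids were mostly not detected, with a median of 3.5 and 3 of 8 detected. Hsd3b7 was at 579 and Cyp39a1 at 76, while Cyp11a1 and Sult2b1 were listed at 0. Per kilobase, the genes above the median were 10 of 16 for fatty acid synthesis, 8 of 12 for SREBP processing, 8 of 13 for the isoprenoid branch, 9 of 12 for transport and 1 of 8 for bile acid and steroid enzymes. Of all detected genes with a length, 50.0% were above it.

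**Figure D4:**
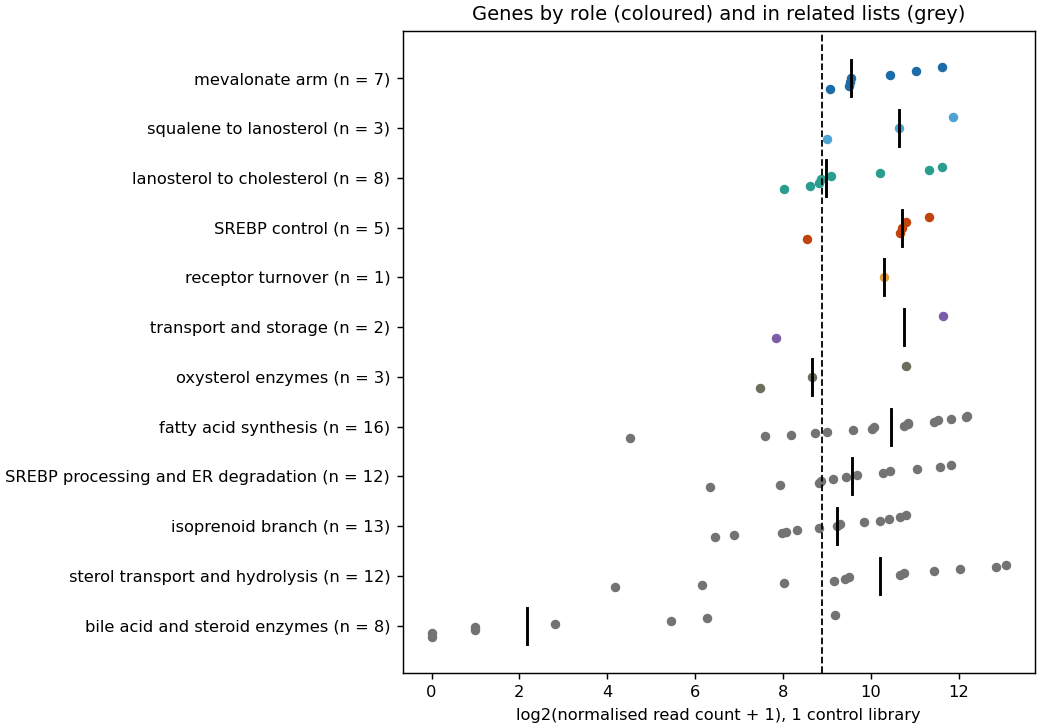
Points are single genes on the log2(normalised read count + 1) scale in the 1 control library, coloured for the 29 genes by role and grey for the related lists. Black bars are list medians and the dashed line the median of detected genes; the bile acid and steroid list, with a median of 3.5, lies apart from the others, and the mevalonate arm lies wholly above the line.

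Some genes of the set share their start region with a neighbour transcribed the other way. The Mvk start lies 209 bases from that of Mmab, an enzyme gene of vitamin B12 metabolism, and they were at 536 and 389. Nsdhl lies 146 bases from Cetn2, a centrin gene at 1473, and Dhcr7 lies 296 bases from Nadsyn1, an NAD synthetase gene at 238. Non-coding neighbours included the antisense gene 3110045C21Rik, 168 bases from Hsd17b7 and at 23, and Gm26608, 258 bases from Insig1 and without a row. A further non-coding gene, Gm26902, overlaps 159 bases (11.5%) of the Ch25h exon on the opposite strand and had no row.

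Srebf2 also hosts a microRNA gene, Mir33, in an intron on the same strand (chromosome 15, 82198122 to 82198190). Its mature miR-33-5p is known to repress sterol exporters, and its seed, bases 2 to 8, is in capitals.
miR-33-5p: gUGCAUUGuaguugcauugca
Mir33 had no row of its own in the table, so only the host value of 2540 is given, and the level of the mature microRNA was not analysed here.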

How the data were processed

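RNA of 1 control culture of mouse VM-derived mixed glia was extracted with Trizol and made into a library with a SMARTer kit. According to the study's methods, reads were trimmed at a quality of 20, mapped to GRCm38/mm10 with STAR and counted on exons of RefSeq Release 105 genes with HTSeq-count, whereas the submitters' processing notes name TopHat and edgeR. The deposited values, which the authors call normalised read counts, hold no fractions, and they entered every step as a score. How they were normalised was not given in the sources used here, so no count model was fitted. Scaling all values by a common factor would leave values per 1000000 unchanged apart from rounding. A normalisation that differs between genes would change them.

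The members and lists were chosen with earlier results of these data known. Each member is named. From each related list the 2 highest genes and the lowest were named, and from each marker list the highest and the lowest. Some genes that this rule selects are left out here. C1qa, Cldn5, Csf1r, Mbp, Mbtps1, Mbtps2, Pecam1, Rbfox3, Snap25, Syt1, Tubb3, the isozymes and the neighbouring genes were named after their values were seen. Gene models came from GENCODE release M21 (GRCm38), and 22867 rows (98.2%) were given a length by symbol or older symbol. GENCODE differs from the RefSeq annotation behind the values. Near-identical transcripts were sought with BLAST 2.17.0 (at least 90% identity over 300 bases). Computations used Python 3.11.15 with numpy 2.4.6, pandas 2.3.3 and matplotlib 3.10.9. The percentile was checked on shuffled deposited values, and the search for the sterol core on simulated sequences with a planted motif. The matching of lengths, exon overlaps, neighbouring starts and BLAST matches were not checked in this way. Alternatives were other minima for detection, other lengths, other totals, a pseudocount of 0.1 in place of 1, and the mean of log2 values. With no replicate, a value counted as moved when it changed by more than 1.5-fold.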

Additional observations from a re-analysis of the deposited data

How the results depend on the processing

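The count of 29 detected genes was the same with a minimum of 1 or 100, at which 18207 and 12015 of the 23282 rows were detected. The number above the median of detected genes was 26 with a minimum of 1, which lowers that median to 317, and 15 with a minimum of 100, which raises it to 779. The share of detected genes above their own median, 49.9% at a minimum of 10, is set by the median itself. At a minimum of 100, 15 of 29 was therefore near the share of all genes. The number of the 29 above the median was 22 to 24 after division by 4 definitions of length, of which the longest transcript and the coding length for this count, and RefSeq-matched exons throughout, were added after the data were seen. Of 174 recomputed percentiles, 147 stayed on the same side of the middle and 27, in 13 genes, did not. With the coding length, the median level per kilobase moved to 1.64 times the median of detected genes for SREBP control, 3.42 for transport and storage and 0.802 for the oxysterol enzymes, and the cause was not tested. With a minimum of 100, 0 of 8 bile acid and steroid genes were above the median instead of 1. Values per 1000000 rose 1.02-fold without Rn45s and 1.15-fold without the 10 highest genes. The lack of a replicate limits each value to this library.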
